A study of Drosophila melanogaster with 2 samples.

Results

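Genes of the Hedgehog and Wingless signalling pathways were examined for binding of D1, a chromosomal protein whose AT-hook motifs contact the minor groove of A/T-rich DNA. The 10 genes, chosen by symbol in the annotation, were hh, ptc, smo and ci of the Hedgehog pathway and wg, fz, fz2, arm, pan and nkd of the Wingless pathway, out of 13945 protein-coding genes on the 6 chromosomes that hold peaks. A peak was given to a gene where its summit lay in the gene body or within 5 kb on either side. The study measured D1 in whole Drosophila melanogaster pupae, aged 24 hours per the labels, by chromatin immunoprecipitation and sequencing (ChIP-seq) with anti-GFP antibody. All animals came from 1 transgenic line that stably expresses D1 with GFP at its C-terminus, sex was not recorded, and there was 1 group of 2 biological replicates with no second condition. The 4 peak lists held 30000 peaks for replicate 1, 30000 for replicate 2, 30000 for the pooled data, and 3388 peaks that the authors selected by the irreproducible discovery rate (IDR), called IDR peaks here. The IDR peaks fell into the windows of 7 of the 10 genes and numbered 41, of 3388 in all.

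Hedgehog is a secreted ligand that binds Patched (ptc). Patched otherwise holds Smoothened (smo) inactive, and Smoothened acts through the transcription factor Cubitus interruptus (ci). Wingless (wg), a Wnt ligand, binds the Frizzled receptors fz and fz2, which stabilises Armadillo (arm), the fly beta-catenin, and Armadillo joins the TCF factor Pangolin (pan) on target genes, while Naked cuticle (nkd) is a feedback inhibitor that the pathway itself induces. Both pathways pattern the discs and histoblasts that form the adult body in the pupa. Whole animals were used, so a peak cannot be placed in a cell type, and a site bound in few cells cannot be told apart from one bound weakly in many.

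The sequences under the peaks that the results below turn on are given first, as 200 bp windows with the summit in the middle, from the Release 6 (dm6) genome, written 5′ to 3′ on the strand named. Capitals mark AATAT or its reverse complement ATATT, the word of an AT-rich satellite on which D1 is known. The hh window is the stretch just before that gene's start, shown for contrast. The authors' set in its label means the IDR peaks alone. A peak of the pooled list, with a signal of 41.6, overlapped this window. Its summit lay 283 bp upstream of the start, so the stretch is not free of peaks in the pooled data.
nkd first intron, highest member peak, chr3L:19042588-19042787, plus strand: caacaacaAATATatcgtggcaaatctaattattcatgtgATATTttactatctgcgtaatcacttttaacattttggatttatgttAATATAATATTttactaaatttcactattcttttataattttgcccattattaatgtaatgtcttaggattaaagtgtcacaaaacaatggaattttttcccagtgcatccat
nkd promoter, chr3L:19045543-19045742, plus strand: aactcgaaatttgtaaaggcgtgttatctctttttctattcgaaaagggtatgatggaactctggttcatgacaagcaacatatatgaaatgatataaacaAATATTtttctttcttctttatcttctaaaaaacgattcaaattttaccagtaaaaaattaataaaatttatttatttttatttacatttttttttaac
fz2 intron, highest fz2 peak, chr3L:19173168-19173367, plus strand: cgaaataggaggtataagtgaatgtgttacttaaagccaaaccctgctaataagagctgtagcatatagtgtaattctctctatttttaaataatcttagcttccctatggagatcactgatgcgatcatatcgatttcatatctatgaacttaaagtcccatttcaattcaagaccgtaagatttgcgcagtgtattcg
fz last intron, highest fz peak, chr3L:14364823-14365022, plus strand: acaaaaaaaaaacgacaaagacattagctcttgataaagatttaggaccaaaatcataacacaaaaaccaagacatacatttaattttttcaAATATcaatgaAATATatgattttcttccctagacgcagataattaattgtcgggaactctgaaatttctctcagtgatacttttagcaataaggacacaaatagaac
fz last intron, lowest AT content of the members, chr3L:14350939-14351138, plus strand: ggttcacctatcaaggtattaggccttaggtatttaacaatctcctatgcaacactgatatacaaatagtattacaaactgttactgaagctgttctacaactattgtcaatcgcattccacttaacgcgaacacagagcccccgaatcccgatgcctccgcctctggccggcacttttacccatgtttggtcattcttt
pan internal promoter, highest AT content of the members, chr4:89976-90175, plus strand: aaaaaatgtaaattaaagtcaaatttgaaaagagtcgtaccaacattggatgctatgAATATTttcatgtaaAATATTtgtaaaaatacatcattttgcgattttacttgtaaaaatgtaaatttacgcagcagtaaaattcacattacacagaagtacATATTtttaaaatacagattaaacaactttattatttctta
ci upstream flank, chr4:58760-58959, plus strand: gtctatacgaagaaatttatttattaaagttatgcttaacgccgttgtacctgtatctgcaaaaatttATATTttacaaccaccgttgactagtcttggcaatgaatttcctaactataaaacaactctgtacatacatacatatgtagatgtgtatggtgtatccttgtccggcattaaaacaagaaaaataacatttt
wg intron, the wg peak, chr2L:7313556-7313755, plus strand: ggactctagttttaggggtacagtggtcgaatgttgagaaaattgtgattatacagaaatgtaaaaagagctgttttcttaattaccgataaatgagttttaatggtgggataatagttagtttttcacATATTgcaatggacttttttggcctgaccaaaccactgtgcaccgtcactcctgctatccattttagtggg
hh, bases before its start, with no peak of the authors' set, chr3R:23141907-23142106, minus strand: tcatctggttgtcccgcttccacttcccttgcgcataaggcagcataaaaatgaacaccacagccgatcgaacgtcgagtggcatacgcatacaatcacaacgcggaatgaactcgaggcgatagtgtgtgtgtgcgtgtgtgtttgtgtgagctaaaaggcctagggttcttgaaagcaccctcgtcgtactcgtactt
The highest peak, in nkd, had 5 such words in 74.5% A/T sequence, and the nkd promoter window had 77% A/T and an unbroken run of 34 A/T bases. The fz2 window had no AATAT and 64.5% A/T. The hh window had 49.5% A/T and no AATAT, but it is not centred on a summit, so this does not compare like with like. In the 250 bp before each start, hh had 50% A/T. Member starts with an IDR summit within 500 bp ranged there from 43.2% (ptc) to 69.2% (pan). The 200 bp at the pooled summits of hh had 50.5 to 71% A/T.

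IDR peaks were denser at these genes than over protein-coding genes as a whole. The merged windows of the 10 genes covered 437 kb, 0.327% of the 6 chromosomes, and held 1.21% of the IDR peaks. This gave 93.8 peaks per Mb in the members' windows, against 28 per Mb in the windows of all protein-coding genes and 25.4 per Mb over the chromosomes. No peak was shared between members. The 3388 highest peaks of each replicate's own list put 36 peaks in the windows in replicate 1 and 34 in replicate 2 (35 ± 1.41, SD, n = 2), over 6 members in replicate 1 and 7 in replicate 2. No test was made, since the genes were chosen as a list with results of these data known and 1 group gives no contrast.

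The share of genes with a peak was also set beside the background. Of the 10 members, 7 had an IDR peak, against 27.3% of all protein-coding genes. The members are long: 9 of them lie in the longest quartile of window length, from 15 kb, where 45.2% of genes had a peak, and 7 of those 9 did. The remaining member, smo, lies in the next quartile, from 12.2 kb, where 23.8% of genes had a peak, and it had none. With all pooled peaks 9 of the 10 members had a summit in the window, against 57.2% of protein-coding genes and 76.6% of those in the longest quartile. Within 500 bp of one of their starts 5 members had an IDR summit (ptc, ci, fz, pan and nkd), against 8.46% of all protein-coding genes. This share was not matched for gene length or for the number of starts, which ran from 1 (as in ptc) to 4 (as in pan).

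**Figure D1:**
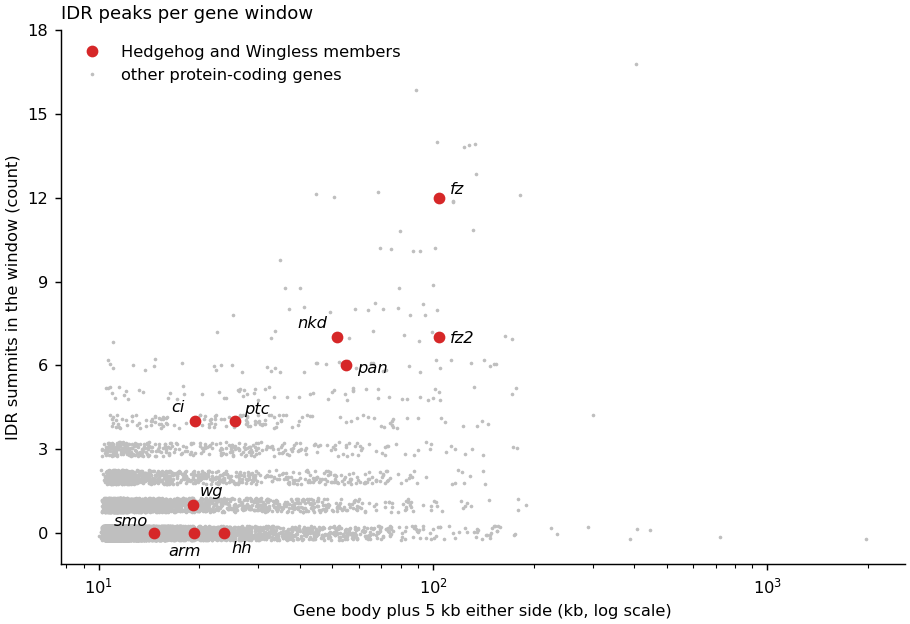
IDR summits per gene window (count) against window length (kb, log scale), for the 10 members (red) and the other protein-coding genes (grey, spread vertically for sight). The plot shows fz with 12, nkd and fz2 with 7 and pan with 6 peaks high among genes of their length, and smo, arm and hh at 0.

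Among genes whose windows were within 20% of the same length, the share with fewer IDR peaks was 97.7% for ci, 97.6% for nkd, 94.7% for fz, 94% for ptc, 93.2% for pan, 83.2% for fz2 and 63.7% for wg. Per 10 kb of window the order was ci with 2.07 peaks, ptc with 1.56, nkd with 1.35, fz with 1.15, pan with 1.09, fz2 with 0.671 and wg with 0.523. These ranks rest on counts between 1 and 12, and no difference between neighbours in the order was tested. The order turns without the flanks: over gene bodies alone ci and ptc kept 1 peak each, and the densities were 1.17 per 10 kb for fz, 1.1 for wg, 1.07 for ci, 0.959 for nkd, 0.89 for pan, 0.642 for ptc and 0.636 for fz2. Chromosomes also differed, with 0.496 IDR peaks per 10 kb on chromosome 4 (ci and pan) and 0.206 on 2R (ptc). Divided by its own chromosome's density, the full window gave ptc 7.6, ci 4.17, nkd 4.15, fz 3.53, pan 2.2, fz2 2.06 and wg 1.88. The replicates' own highest lists gave ptc 4 and 4 peaks, ci 3 and 3, fz2 6 and 6, nkd 7 and 5, fz 13 and 9, pan 3 and 6, and wg 0 and 1, each in replicate 1 and then replicate 2. These counts take any peak in the window and need not be the IDR peaks. Of the 41 IDR peaks, 29 were in the highest list of replicate 1 and 29 in that of replicate 2. The ptc promoter and intron 1 peaks ranked 13713 and 14551 in replicate 1.

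**Figure D2:**
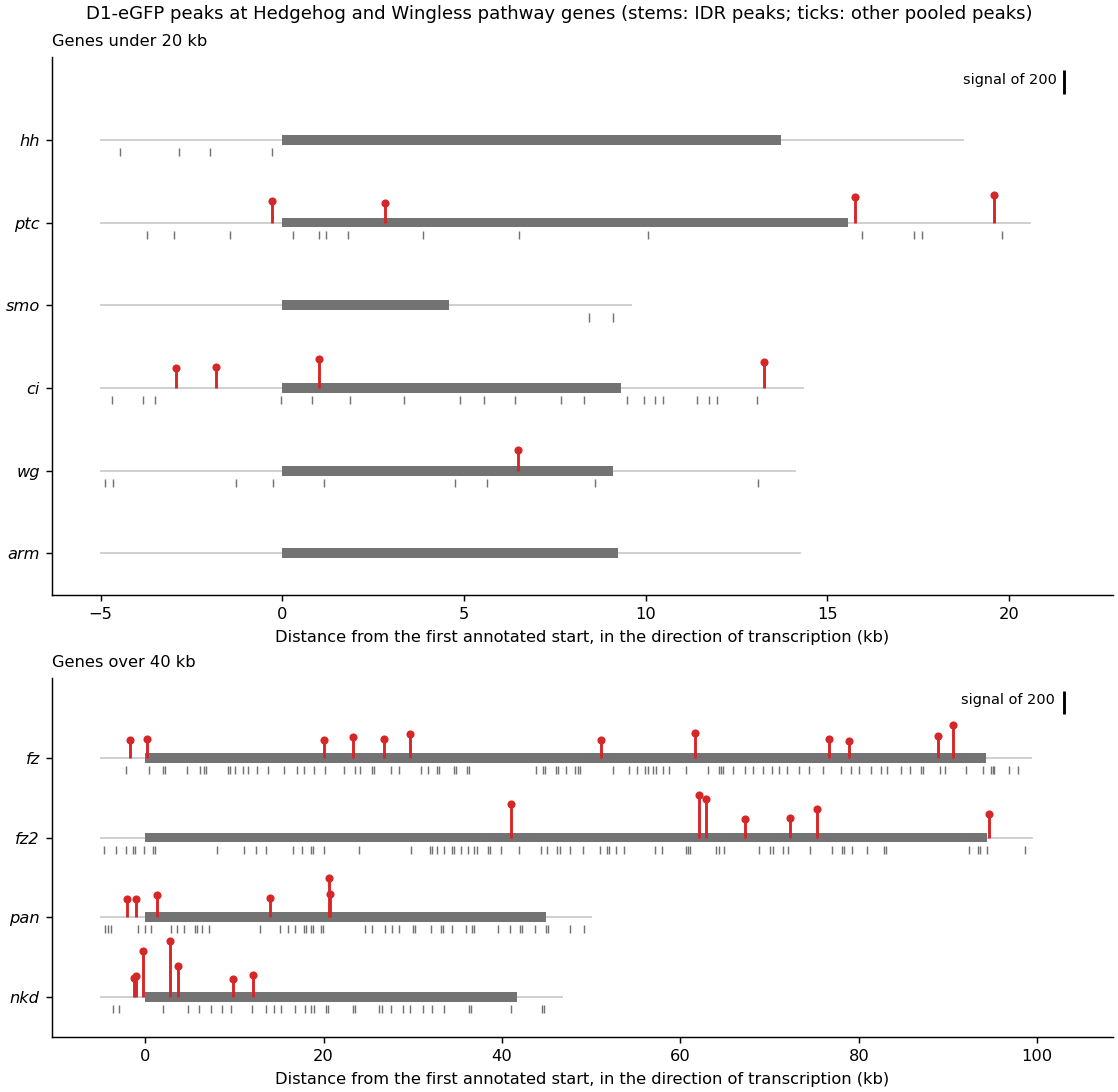
Map of the 10 gene windows, with distance from the first annotated start in the direction of transcription (kb), the gene body as a thick bar, IDR peaks as stems whose height is the signal, and other pooled peaks as ticks. The tallest stems stand at and inside the 5′ end of nkd and in the middle of fz2 and pan, and arm carries no mark.

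The 2 ligand genes had 0 (hh) and 1 (wg) IDR peaks, and this depended on the setting. The counts stayed 0 and 1 for gene bodies, a flank of 2 kb and replicate 2 alone. With a flank of 10 kb each had 2, and among the 1694 highest IDR peaks or in replicate 1 alone each had 0. At hh (chr3R:23128169-23141906, minus strand), no IDR summit lay in the 23.7 kb window, and its 4 pooled peaks were all upstream of the start, between 283 and 4457 bp from it. The highest of them had a pooled signal of 84.9 (rank 9062 of 30000), with signals of 26 in replicate 1 and 57.6 in replicate 2. The nearest replicate 1 summit was 0 and 11 bp from the pooled summits with 84.9 and 59.3. It was 1418 and 1702 bp from those with 55.9 and 41.6. Replicate 1 also had a summit inside the hh gene, with a signal of 24.6 (rank 22640). The nearest IDR peak to hh lay 5855 bp upstream of its start, just outside the window, with a signal of 165 and rank 2489. The wg gene (chr2L:7307159-7316265, plus strand) had 1 IDR peak, inside intron 3, which is 1.18 kb long, and 6497 bp from its start, with a signal of 171 and rank 2310. In the replicates this peak had 56.6 in replicate 1 (rank 5032) and 114 in replicate 2 (rank 1569), so it was among the 3388 highest in replicate 2 only. The wg window held 10 pooled peaks, against a median of 3 in genes of like length, and that of hh 4, against a median of 5. The start of wg had no IDR summit within 500 bp and 1 pooled summit.

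The receptor genes differed widely. For smo (chr2L:277582-282167, plus strand), the 2 pooled peaks in the window lay downstream, 303 and 143 bp before a start of CG3625. The first had a signal of 124, with 62.8 in replicate 1 and 66.3 in replicate 2, and the second 94.4, with 39.4 in replicate 1 and 55.4 in replicate 2. No pooled summit lay within 500 bp of the smo start, and the nearest IDR summit was 29471 bp from the gene. For ptc, which encodes the Hedgehog receptor and is itself a Hedgehog target, 4 IDR peaks were found (chr2R:8649649-8665223, plus strand). A promoter peak lay 290 bp upstream of the start, with a pooled signal of 181 (rank 2075), 33.1 in replicate 1 and 138 in replicate 2. An intron 1 peak, nearest to the start of lncRNA:CR44281, had 161, with 32 in replicate 1 and 88.8 in replicate 2. The other 2 lay in the downstream flank, nearest to starts of Acsl, with 208 and 224, and their replicate signals were 109 and 122 in replicate 1 and 93.1 and 96.6 in replicate 2. The 2 peaks at ptc itself were thus low in replicate 1 and those near Acsl were similar in both.

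The Frizzled receptor genes fz (chr3L:14274343-14368639, plus strand) and fz2 (chr3L:19140975-19235373, minus strand) are 94.3 and 94.4 kb long. They held 19 of the 41 peaks (46.3%) in 47.8% of the summed window length. In fz, 12 IDR peaks had signals from 148 to 282, and 4 of them lay in intron 1 (29.2 kb) and 6 in intron 4 (49.4 kb). The highest was towards the 3′ end of intron 4, with 282 (rank 729), 167 in replicate 1 and 108 in replicate 2. The next were a peak in intron 4 with 211, which had 119 in replicate 1 and 103 in replicate 2, and a peak in intron 1 with 207, which had 130 in replicate 1 and 80.1 in replicate 2. For 8 of the 12 the nearest start belonged to another gene, namely lncRNA:CR45025 and CG13482, which start inside fz, and CG13481, which starts just beyond its 3′ end. The fz promoter peak, 201 bp inside the gene, had 159. In fz2, 7 peaks ranged from 158 to 364, and 4 lay in intron 5 (25 kb). The 2 highest stood 714 bp apart there, with pooled signals of 364 (190 in replicate 1, 177 in replicate 2) and 329 (192 in replicate 1, 137 in replicate 2). They lay 2620 and 1906 bp upstream of an internal fz2 start. A peak in intron 4, nearest to the start of lncRNA:CR45941, had 289, with 167 in replicate 1 and 117 in replicate 2. None of the 3 starts of fz2 had an IDR summit within 500 bp.

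The transducers and transcription factors were split between arm and the chromosome 4 genes ci and pan. Across all 4 lists arm (chrX:1891401-1900646, minus strand) had no peak at all in its 19.2 kb window, and its 4 starts had none within 500 bp. Of the 1718 genes with windows of like length, 31.3% also had no pooled peak. The nearest pooled summit to arm was 39530 bp away and the nearest IDR summit 43075 bp away, near Hr4. The ci gene (chr4:47710-57041, minus strand) had 4 IDR peaks: 1 in its promoter 295 bp inside the second of its starts with 242 (rank 1097; 124 in replicate 1, 140 in replicate 2), 2 upstream with 171 and 167, and 1 downstream at the start of PlexB with 214. In pan (chr4:69326-114270, plus strand), 6 peaks ranged from 157 to 337. The highest lay 479 bp upstream of an internal start, with 162 in replicate 1 and 189 in replicate 2, and the next, 200 bp away with 199, shared its replicate 2 summit with it and had 65.4 in replicate 1. A peak 230 bp inside another pan start had 194, with 79.4 in replicate 1 and 114 in replicate 2. The ci and pan windows make up 5.58% of chromosome 4 and held 15.2% of its 66 IDR peaks.

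The feedback inhibitor nkd (chr3L:19003741-19045449, minus strand) had the highest peaks of the 10 genes. Its first intron (33.2 kb) held 4 of 7 IDR peaks, and the highest, 2761 bp into the gene, had a pooled signal of 477 (rank 148), with 233 in replicate 1 and 247 in replicate 2. The promoter peak, 194 bp upstream of the start, had 397 (rank 266), with 183 in replicate 1 and 220 in replicate 2. These were the 2 member peaks in the highest 10% of the IDR set. Another intron peak had 263, with 123 in replicate 1 and 147 in replicate 2, and the remaining 4 ranged from 151 to 186.

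**Figure D3:**
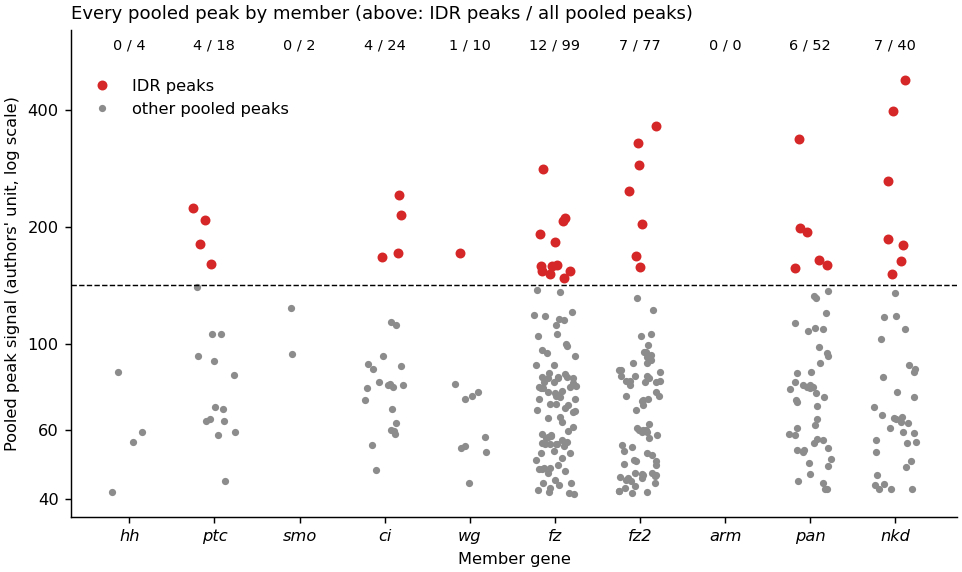
Pooled signal (authors' unit, log scale) of every pooled peak in each member's window, IDR peaks in red and the others in grey, with the counts of IDR and all pooled peaks above. The dashed line is the lowest IDR signal, 142, and the points highest above it belong to nkd, fz2 and pan.

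Most of the members' IDR peaks were in the lower part of the set. Their median signal was 183, against 201 for the other 3347 IDR peaks, and 16 of 41 (39%) were among the 1694 highest of the set, against 50.1% of the others. Below the IDR set the members' 285 other pooled peaks had a median of 68.1, against 60.4 for the rest of the pooled list. There the members' median was the higher one, and the difference was not tested.

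Replicate matching was checked by summit distance. A summit of each replicate lay within 100 bp of 38 of the 41 member peaks (92.7%), against 91.9% of the other IDR peaks, but per the deposited text notes the IDR list was made from these lists, so the share is no independent measure. The IDR list was also exactly the 3388 highest pooled peaks by signal. Among the 3388 highest of both replicates were 18 member peaks (43.9%), against 62.1% of the others. The log2 ratio of replicate 2 to replicate 1 had an SD of 0.67 over the matched member peaks and 0.53 over the others. It was above 2-fold in 6 member peaks and below in none, against 197 above and 38 below among the 3076 others. The 6 were both peaks at ptc itself (4.17-fold and 2.77-fold), the ci upstream peak (2.25-fold), the wg peak (2.01-fold), the fz2 downstream peak nearest to CG14082 (2.76-fold) and the lower of the adjacent pan peaks (2.89-fold). No source used here gives the scale of the signal, so signals of different lists may not be on 1 scale.

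**Figure D4:**
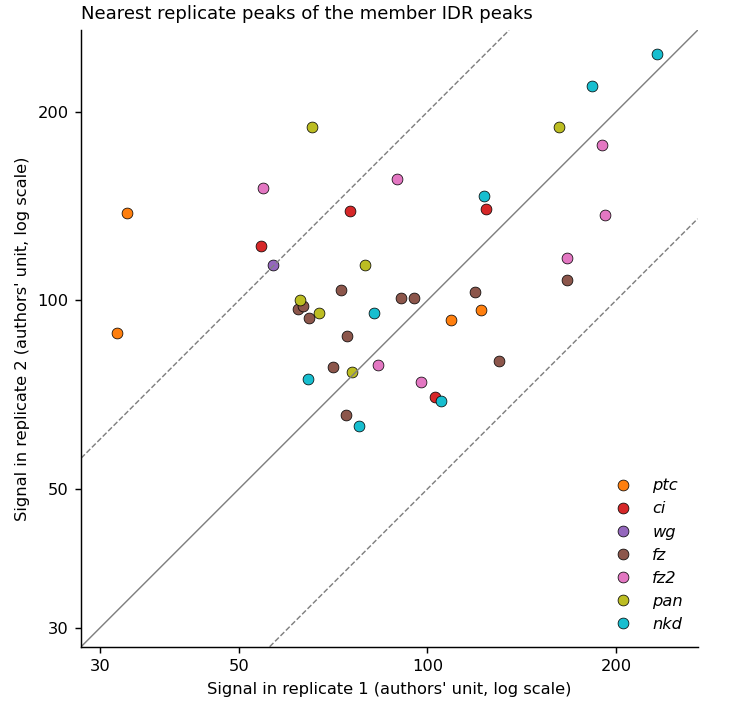
Signal of the nearest replicate peak for each of the 41 member IDR peaks, replicate 1 across and replicate 2 up (authors' unit, log scales), coloured by gene, with lines at equality and at 2-fold either way. The 6 points above the upper line belong to ptc, ci, wg, fz2 and pan, and no point lies below the lower line.

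By position, 26 of the 41 peaks were in introns (63.4%, against 38.7% of the other IDR peaks), 10 were within 500 bp of a start (24.4%, against 37.7%) and 5 were intergenic. Introns of any gene were counted. The ptc downstream peak with 224 and the ci upstream peaks with 171 and 167 lay in introns outside the member gene. No member summit was classed as UTR or coding exon, classes that were also rare among the other IDR peaks (0.598% in 5′ UTRs, 1.37% in 3′ UTRs and 0.209% in coding exons). Summits within 500 bp of a start were set apart before these classes were given, so they can lie in exons. The fz promoter peak, 201 bp inside the gene, lay in no intron of fz. The nearest start was the member's own for 24 peaks and another gene's for 17, and 28 lay in the gene body and 13 in a flank. More than 5 kb from any start lay 13 (31.7%, against 20.3%). The median distance to the nearest other IDR summit was 2340 bp for member peaks and 4108 bp for the others. Member peaks were taken from gene bodies with 5 kb either side, and 9 members are in the longest quartile. The other IDR peaks could lie anywhere, so these shares and distances do not compare like with like. Whether D1 prefers introns at these genes was not tested.

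The base composition at member peaks was close to that of the set. The mean AT content of the 200 bp windows was 67.2% (SD 5.55 over 41 peaks), against 66.5% (SD 6.9) for the others. The means ran from 62.5% for the wg peak to 70.6% for nkd. AATAT on either strand was in 32 of 41 windows (78%, against 75%). GAGAG, a word of GAGA factor sites, was in 29.3% against 20.9%. AAAAAAAA was in 14.6% against 18.9%, TATAAA in 36.6% against 39.6% and TATCGATA in no member window, against 1.64%. CTTTGA, a core of TCF sites, was in 4 windows (9.76%, against 11.5%), at ptc, ci, fz2 and nkd, and GACCACCCA, the Ci site, in none (1 window in all the set). A match is a description and not a site.

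**Figure D5:**
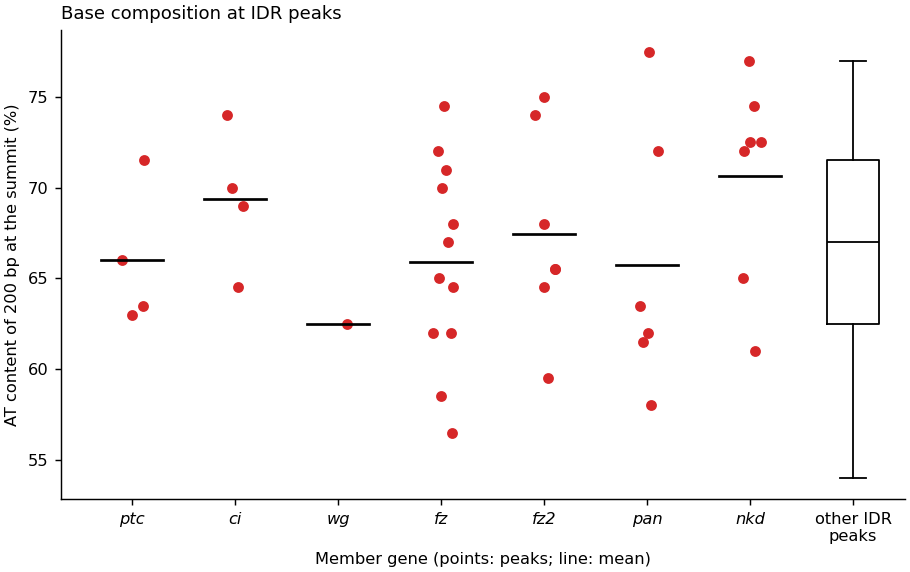
AT content (%) of the 200 bp at each member IDR summit by gene, with the mean as a line, and the other IDR peaks as a box of median and quartiles with whiskers at the 5th and 95th percentiles. Member points lie between 56.5 and 77.5%.

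AT-rich sequence at the genes was counted in 200 bp tiles of at least 65% A/T. Of 638 such tiles in the members' windows, 25 (3.92%) held an IDR summit, against 1.18% over the chromosomes, and of the other tiles 1.04% did, against 0.289%. Such tiles made up 8.33% of the arm window, 8.47% of hh and 12.5% of smo, the genes with no IDR peak. Among members with peaks they made up 15.8% of the wg window, 20.5% of ptc, 20.9% of nkd, 25.1% of fz2 and 28.8% of fz, against 24.3% over the chromosomes. The ci and pan windows had 63.5% each, against 51% over chromosome 4, on which both lie. Tiles outside the AT-rich ones held 16 member IDR summits, with some in every member that had peaks. They were 6 in fz, 3 in pan, 2 each in ptc and fz2, and 1 each in ci, nkd and wg. Exons covered 80.2% of the smo window, 65.4% of arm and 28.6% of hh. In members with peaks they covered 46.1% for ci, 34.8% for pan, 24.8% for ptc, 17.8% for nkd, 15.3% for wg, 9.99% for fz2 and 5.45% for fz. The part of AT content and exons in the counts was not tested.

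Of the other genes of the pathways, 19 of 51 had an IDR peak in the same window (37.3%, against 27.3% of all protein-coding genes). Many of these genes are long, and set beside genes of their own length they lay on both sides of the background: 18 of the 32 in the longest quartile had a peak, against 45.2% of all genes there, and 1 of the 15 in the next quartile, against 23.8%. The share of 37.3% is therefore not read as higher than the background. The Hedgehog list gave 12 of 25 and the Wingless list 10 of 31, with shared genes counted in both. Among Hedgehog genes the highest peaks were at Gprk2, a kinase gene (890, at the start of PNPase), dpp, a BMP ligand and Hedgehog target (522), rdx, which encodes an adaptor for Ci degradation (355), the glypican gene dlp (349, nearest to lncRNA:CR45888) and the kinase gene sgg (295). Among Wingless genes they were at nmo, a kinase gene (436, nearest to the start of bip1), dlp, sgg, the co-receptor gene arr (273, nearest to Golgin97) and the hydrolase gene Notum (224, nearest to CG5895).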

How the data were processed

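D1-eGFP ChIP-seq was analysed from peak lists. Per the labels, chromatin was sonicated (size range 200 to 800) and assembly dm6 was used. Per the deposited text notes, the authors called peaks on each replicate and on both pooled, with a control file, and derived the IDR list from these. Each peak has the authors' deposited signal, a deposited -log10 q value and a summit, given as a deposited offset. The -log10 q values tie at a maximum (3.66 in the IDR list), so signals were used for ranks. The aligner, peak caller, IDR threshold, scale of the signal and read depth have no statement in the sources used here, and no interval is given.

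Positions are 1-based. Genes came from Ensembl release 115 and sequence from NCBI Release 6. Python 3.11.15, numpy 2.4.6 and pandas 2.3.3 were used, and the counting was tested on simulated peaks. Spread is the SD over the 2 replicates' 3388 highest peaks. Both replicates form 1 group and are biological replicates per the labels. Members and lists were chosen with earlier results of these data known. Every member and its IDR peaks were named (beyond 5, the 3 highest and the range of the rest), with the 5 highest genes of each other list, and other genes at the nearest start. Of the list symbols, swim matched no gene. Alternatives were other flanks, lists, windows and distances.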

Additional observations from a re-analysis of the deposited data

How the results depend on the processing

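The 7 members with an IDR peak (27.3% of all protein-coding genes) were 7 for gene bodies (7.67%), 7 with a flank of 2 kb (18.9%), 8 with 10 kb (38.9%), 6 for the 1694 highest IDR peaks (16.9%), 9 with all pooled peaks (57.2%) and 6 to 7 with 1 replicate alone (28.3% in replicate 1 and 27.4% in replicate 2). Of 52 alternatives of the main values, 31 stayed within the spread or within 1.5 times the count and 21 moved. Peak density in the members' windows was 83.1 per Mb for gene bodies, 98.2 with a flank of 2 kb, 88.8 with 10 kb, 36.6 for the 1694 highest IDR peaks (12.7 over the chromosomes), 746 for all pooled peaks (224) and 77.8 to 82.4 with 1 replicate alone. The peak count was 16 for these 1694, 326 for all pooled peaks and 34 to 36 with 1 replicate. The share near starts was 17.9% for gene bodies, 31.2% for these 1694, 11.7% for all pooled peaks, 12.2% within 250 bp, 36.6% within 1000 bp and 19.4 to 26.5% with 1 replicate. The mean AT content was 68.4% for these 1694, 63.5% for all pooled peaks, 69.5% in 100 bp, 63.5% in 500 bp and 67.1 to 67.8% with 1 replicate. Summits within 50 bp matched 25 peaks in both replicates. Other pathway genes with a peak were 14 for gene bodies, 12 for these 1694 and 20 to 22 with 1 replicate, against the same shares of all genes. The alternatives for other pathway genes and for the word windows were chosen after seeing the data. The cause of these shifts was not tested. No paired analysis was possible because there was only 1 group. Of 80 counts per member, 57 stayed within 1.5 times, 11 were higher and 12 lower. Read depth is unknown, and 2 replicates limit the precision of each spread.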

Other observations

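The nkd and fz2 windows lie 85.5 kb apart on 3L. The stretch between them held 8 IDR peaks, 0.935 per 10 kb, against 0.326 per 10 kb over that chromosome arm. The windows of fz, fz2 and nkd make up 0.93% of 3L and held 2.85% of its 913 IDR peaks. The ci and pan windows lie 2284 bp apart on chromosome 4, and no IDR peak fell between them.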
